A study of Mus musculus with 8 samples.

Results

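The guide strands of the miR-99/100 and miR-125 families were followed through 8 small RNA libraries from murine hepatocytes and from the extracellular vesicles (EVs) that these cells release. The guides are mmu-miR-99a-5p, mmu-miR-99b-5p, mmu-miR-100-5p, mmu-miR-125a-5p and mmu-miR-125b-5p, named below without the mouse prefix. They were chosen by name, as the guides of these families whose hairpins lie in genomic clusters with let-7. Earlier results of these data were known when they were chosen. They make up 5 of the 1978 mouse mature miRNAs in the count table. All 5 were among the 180 miRNAs with reads in enough libraries to be tested.

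The libraries came from 3A cells, a line of non-tumorigenic murine hepatocytes, and from EVs collected by ultracentrifugation of medium conditioned for 72 h with EV-depleted serum. The cells carried either a control shRNA (shCTR) or an shRNA against PCBP2 (shPCBP2). The paper describes retroviral infection and puromycin selection for shPCBP2, and lists the control shRNA for the same vector. The shPCBP2 line was made for the study, whereas the shCTR line had been generated before. The study asked how PCBP2, an RNA-binding protein, affects the partition of miRNAs between cells and EVs. Cells and EVs of either line gave 4 groups of 2 libraries each. Each group therefore stands for 1 silenced or control line, and whether a cell and an EV library share a culture is not stated in the sources used here. The mRNA of PCBP2 is not read by these libraries, so the silencing could not be checked in them. The paper reports it separately, from PCBP2 expression levels and western blots of shCTR and shPCBP2 hepatocytes.

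Members of the miR-99/100 family are known to repress mTOR, the kinase that couples nutrients to growth. The miR-125 family is homologous to lin-4 of the nematode, the founding miRNA. It acts in developmental timing, blood cell formation and the control of p53 and of LIN28, which in turn blocks let-7 maturation. In vertebrates both families sit beside a let-7 gene in conserved clusters whose members can be made from 1 primary transcript.

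The sequences are shown because the guides of each family share a seed, the bases 2 to 8 that select targets, while the results below differ between guides of the same seed. They were taken from RefSeq on GRCm38.p6, read 5′ to 3′, and the seed is in capitals.
miR-99a-5p: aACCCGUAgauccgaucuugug
miR-100-5p: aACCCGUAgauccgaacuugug
miR-99b-5p: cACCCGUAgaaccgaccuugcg
miR-125a-5p: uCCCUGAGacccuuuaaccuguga
miR-125b-5p: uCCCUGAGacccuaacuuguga
Counted from 1 at the 5′ end, miR-99a-5p differed from miR-100-5p by the single substitution A16U. miR-99b-5p differed from miR-100-5p by A1C, U11A, A16C and U21C, all outside the seed. The miR-125 guides shared their first 13 bases and had lengths of 24 and 22 bases. In RefSeq the ACCCGUA seed belonged to these 3 guides alone, whereas CCCUGAG was also the seed of miR-351-5p, miR-6367 and miR-6394. The letters AUUA and AUUG, the core of the CELL motif of retained miRNAs, occurred in 2.50% and 6.79% of 1679 mature mouse miRNAs. The string GGCU occurred in 13.3%. It covers only some forms of the longer, degenerate hEXO motif bound by SYNCRIP, which was not searched in full. AUUA and AUUG share their first 3 letters, and only the mature strand was searched. None of the 3 strings occurred in any of the 5 guides, which says nothing about other forms of these motifs.

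The hairpins formed 3 clusters, all on the plus strand. On chromosome 16, Mir99a (guide at chr16:77598940-77598961), Mirlet7c-1 and Mir125b-2 (guide at chr16:77646279-77646300) lay in introns of the non-coding host gene Mir99ahg. Mir99a and Mirlet7c-1 were 656 bases apart, and Mir125b-2 followed after a further 46522 bases. On chromosome 17, Mir99b (guide at chr17:17830194-17830215), Mirlet7e and Mir125a (guide at chr17:17830817-17830840) were packed within Spaca6, with gaps of 94 and 367 bases. Mir125a overlapped an annotated exon of Spaca6, and the other pair were intronic. On chromosome 9, Mir100 (guide at chr9:41531437-41531458), Mirlet7a-2 and Mir125b-1 (guide at chr9:41581940-41581961) lay in introns of the non-coding genes 3110039I08Rik and Gm49317, and Mir125b-1 also overlapped an exon of the sense-intronic gene Gm28119. The mature miR-125b-5p is the same from chromosomes 9 and 16, so its reads cannot be divided between these loci. Reads of miR-99a-5p and miR-100-5p are told apart by a single base, and their division by the aligner is uncertain to that extent.

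Each library held between 26391248 and 38166798 counted reads. Mouse miRNAs took 33.1% to 42.6% of them in cells and 1.62% to 2.42% in EVs, and cel-miR-39-3p, a nematode miRNA added as a spike-in, took the rest. Mouse miRNA reads thus numbered 8745848 to 12732173 in a cell library and 503070 to 687592 in an EV library. The share of mouse reads was lowest among cell libraries in cell shPCBP2 replicate 1. Among markers of hepatocytes, miR-194-5p was abundant in cells, with 218474 to 342726 counts, but miR-122-5p, the defining miRNA of mature hepatocytes, had only 356 to 485 counts and miR-122-3p none.

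All 5 guides were read in every library, and together they held a larger share of the mouse reads in EVs than in cells. They made up 1.79% and 1.73% of the mouse miRNA reads of cells with shCTR and 1.33% and 1.16% with shPCBP2, against 2.85% and 2.75% (shCTR) and 3.13% and 2.87% (shPCBP2) in EVs. The composition also differed between the compartments. In cells miR-125b-5p held 42.2% to 50.4% of the reads of the 5 guides and miR-99a-5p 0.934% to 1.33%. In EVs miR-125b-5p held 30.9% to 37.0% and miR-99a-5p 13.2% to 18.2%.

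By the share of mouse reads, miR-99a-5p was the guide that differed most between the compartments. In cells its level was 234 and 162 RPM (reads per 1000000 mouse miRNA reads) with shCTR and 155 and 154 with shPCBP2. In EVs it was 4043 and 5000 with shCTR and 4787 and 3797 with shPCBP2. Every EV library stood far above every cell library on this scale, whichever shRNA the cells carried. The raw counts were 2981, 1895, 1354 and 1946 in the cell libraries and 2780, 2768, 2961 and 1910 in the EV libraries, so about the same number of reads came from pools of mouse reads that differed greatly in size. By mean level the guide ranked 123rd among mouse miRNAs in cells and 46th in EVs.

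miR-100-5p, which differs from miR-99a-5p by a single base, stayed near the same share of reads in both compartments. It had 2923 and 2719 RPM with shCTR and 2392 and 2738 with shPCBP2 in cells, and 3154 and 3584 with shCTR and 3028 and 4584 with shPCBP2 in EVs. The EV libraries were all above the cell libraries, but by small margins. miR-99b-5p, the family member of the chromosome 17 cluster, had 5989 and 4674 RPM with shCTR and 3168 and 2635 with shPCBP2 in cells, and 5844 and 4894 with shCTR and 6621 and 5773 with shPCBP2 in EVs. Here cell and EV libraries overlapped in shCTR, while both cell shPCBP2 libraries lay below all others.

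miR-125a-5p, transcribed beside miR-99b, held a lower share of the mouse reads in cells than in EVs. It had 1188 and 1628 RPM with shCTR and 904 and 817 with shPCBP2 in cells, and 6101 and 3879 with shCTR and 5663 and 5669 with shPCBP2 in EVs, with no overlap between the compartments. miR-125b-5p was the most abundant of the 5 guides in every library. It had 7558 and 8156 RPM with shCTR and 6721 and 5236 with shPCBP2 in cells, and 9325 and 10183 with shCTR and 11172 and 8850 with shPCBP2 in EVs. Its EV libraries were all above its cell libraries, again by a small margin.

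The order of the guides by RPM was therefore not the same in the compartments. In cell shCTR it ran miR-125b-5p, miR-99b-5p, miR-100-5p, miR-125a-5p and miR-99a-5p, with no overlap between neighbours in their paired values. In cell shPCBP2 the order was kept, but miR-99b-5p and miR-100-5p overlapped. In EVs miR-125b-5p stood clear of the rest with either shRNA. With shCTR the values of miR-99b-5p, miR-125a-5p and miR-99a-5p overlapped and miR-100-5p lay below them, and with shPCBP2 miR-99b-5p came next, then miR-125a-5p, and miR-99a-5p and miR-100-5p overlapped below. The guides are of like length, so no correction for length was made, and differences in ligation and amplification between them were not measured.

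**Figure D1:**
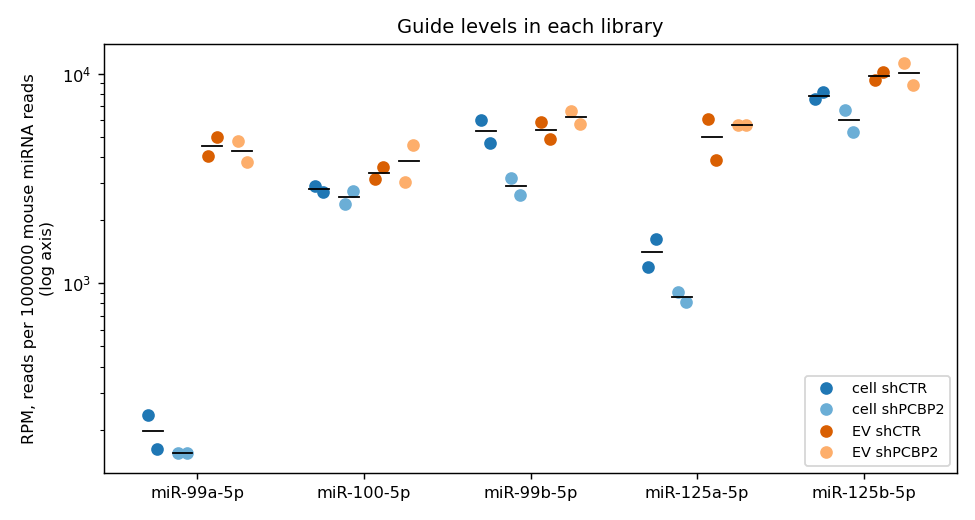
Level of each guide in each library, in RPM on a log axis, with 1 point per library and a black line at the mean of the 2 libraries of a group. miR-99a-5p lies at 154 to 234 in cells and at 3797 to 5000 in EVs, and miR-125a-5p also separates by compartment, while miR-99b-5p overlaps between the compartments in shCTR.

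In the share of mouse reads, 4 of the 5 guides were higher in all 4 EV libraries than in all 4 cell libraries, and miR-99b-5p was the exception. Of all tested miRNAs, 30.6% were separated in this direction and 24.4% in the other. This separation rests on libraries and not on a test, and for miR-100-5p and miR-125b-5p the margins were small.

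The amounts relative to the spike-in were compared in 1 fit over the 8 libraries (edgeR, quasi-likelihood), with p-values adjusted by Benjamini-Hochberg over the 180 miRNAs. On this scale mouse miRNAs as a whole were scarcer in EV libraries, and the median of their log2 EV/cell ratios was -4.93 (shCTR) and -4.90 (shPCBP2). How much RNA of each compartment entered a library was not part of the table, so the ratios are given also as their distance from this median. In shCTR 4 of the 5 guides were lower in EVs at an adjusted p under 0.05, beside 59.4% of all tested miRNAs, and in shPCBP2 the same 4 guides were, beside 60% of all. The exception was miR-99a-5p in both.

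Per 1000000 spike-in reads, cells gave 167 and 120 reads of miR-99a-5p with shCTR and 76.7 and 109 with shPCBP2. EVs gave 100.1 and 106 with shCTR and 78.9 and 62.8 with shPCBP2. On this scale the EV and cell libraries overlapped in shPCBP2, and in shCTR both EV libraries lay slightly below both cell libraries. Its log2 EV/cell ratio was -0.48 (SE 0.50, adjusted p = 0.405) in shCTR and -0.39 (SE 0.50, adjusted p = 0.511) in shPCBP2, with 95% intervals from -1.71 to 0.75 and from -1.62 to 0.84. This placed it 4.45 above the median of all miRNAs in shCTR, 28th of 180, and 4.50 above it in shPCBP2, 32nd of 180.

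miR-125a-5p had 848 and 1210 reads per 1000000 spike-in reads in cells with shCTR against 151 and 82.5 in their EVs. The log2 ratio was -3.14 (SE 0.44, adjusted p = 0.000754), 1.79 above the median. In shPCBP2 the levels were 448 and 579 in cells and 93.3 and 93.8 in EVs, and the log2 ratio was -2.46 (SE 0.42), 2.44 above the median. miR-125a-5p was thus lower in EVs per spike-in but less so than most miRNAs.

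The log2 EV/cell ratios of the other 3 guides lay near the bulk of the miRNAs. For miR-100-5p it was -4.73 (SE 0.38) in shCTR and -4.64 (SE 0.38) in shPCBP2, 0.20 and 0.26 above the medians. That of miR-125b-5p was -4.68 (SE 0.20) and -4.41 (SE 0.20), 0.25 and 0.48 above. That of miR-99b-5p was -4.96 (SE 0.29) in shCTR, 0.029 below the median, and -4.07 (SE 0.28) in shPCBP2, 0.83 above it.

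The sign of these ratios depends on the scaling. In place of the spike-in, the libraries were scaled by TMM factors, by the median-of-ratios method or by the total of mouse reads. The median of all miRNAs was then -0.17, -0.15 and 0.060 in shCTR and -0.33, -0.13 and 0.30 in shPCBP2. The log2 ratio of miR-99a-5p was 4.29, 4.30 and 4.51 in shCTR, and that of miR-125a-5p 1.62, 1.61 and 1.83, and both guides were called higher in EVs in place of the 4 lower calls, beside 23.3%, 22.2% and 23.9% of all miRNAs. The other 3 guides came near 0 in shCTR and passed no test there. In shPCBP2 the guides called were likewise all higher in EVs. TMM factors called miR-99a-5p (4.16) and miR-125a-5p (2.10), the median-of-ratios method also miR-99b-5p (0.67), and the total of mouse reads also miR-99b-5p (1.09) and miR-125b-5p (0.74). Of all miRNAs, 23.3%, 25% and 30% were called higher in shPCBP2 under these scalings.

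**Figure D2:**
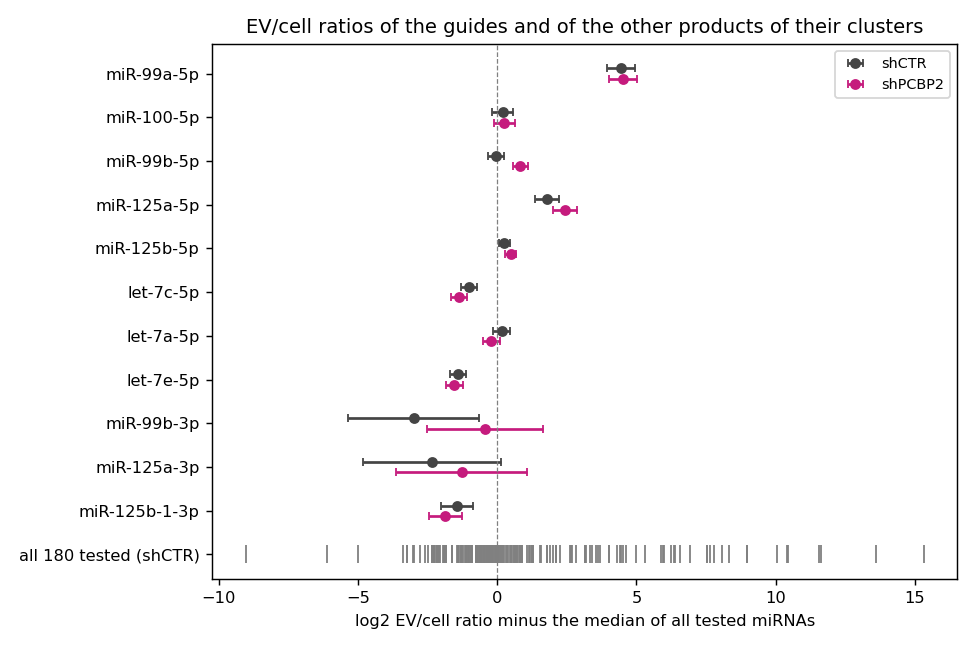
log2 EV/cell ratio relative to the spike-in, minus the median of all tested miRNAs, for the 5 guides, the let-7 guides of their clusters and the passenger strands that could be tested, as points with SE in shCTR and shPCBP2. The ticks at the bottom mark all 180 tested miRNAs in shCTR; miR-99a-5p lies 4.45 and 4.50 above the median and miR-125a-5p 1.79 and 2.44 above it.

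A ratio of guides within a library needs no scaling between libraries. For miR-99a-5p over miR-100-5p it was 0.0801 and 0.0596 with shCTR and 0.0647 and 0.0563 with shPCBP2 in cells, and 1.28 and 1.40 with shCTR and 1.58 and 0.828 with shPCBP2 in EVs. miR-100-5p thus far outnumbered miR-99a-5p in every cell library, and miR-99a-5p was the more abundant in 3 of the 4 EV libraries. The mean log2 ratio was -3.95 ± 0.22 in cells and 0.31 ± 0.41 in EVs (SD, n = 4 libraries each), a 19.2-fold difference. A two-sided exact permutation test that pooled both shRNAs gave p = 0.0286, and 0.0429 after Benjamini-Hochberg adjustment over 3 ratios. With libraries exchanged only within each shRNA, the exact permutation p was 0.0556.

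miR-125a-5p over miR-125b-5p was 0.157 and 0.200 with shCTR and 0.135 and 0.156 with shPCBP2 in cells, and 0.654 and 0.381 with shCTR and 0.507 and 0.641 with shPCBP2 in EVs. miR-125b-5p remained the more abundant guide throughout, and the compartments did not overlap. The mean log2 ratio was -2.64 ± 0.24 in cells and -0.91 ± 0.36 in EVs (SD, n = 4 libraries each), a 3.33-fold difference. The same pooled two-sided exact permutation test gave p = 0.0286, and 0.0429 after Benjamini-Hochberg adjustment. Within each shRNA the exact permutation p was again 0.0556.

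miR-99b-5p over miR-100-5p was 2.05 and 1.72 with shCTR and 1.32 and 0.962 with shPCBP2 in cells, and 1.85 and 1.37 with shCTR and 2.19 and 1.26 with shPCBP2 in EVs. The compartments overlapped, and the mean log2 ratios of 0.54 ± 0.47 in cells and 0.70 ± 0.37 in EVs (SD, n = 4 libraries each) differed by 0.16 (two-sided exact permutation test, p = 0.571). The smallest p that 4 against 4 libraries allow is 0.0286, and these tests pool both shRNAs. The guides were chosen with earlier results of these data known. By share of mouse reads, 30.6% of all tested miRNAs were higher in all EV than in all cell libraries, and 24.4% lower. How many ratios of other miRNAs separate was not computed, so these p-values are not independent support. When libraries were exchanged only within each shRNA, the exact permutation p of the first 2 ratios was 0.0556, the smallest this scheme can give.

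**Figure D3:**
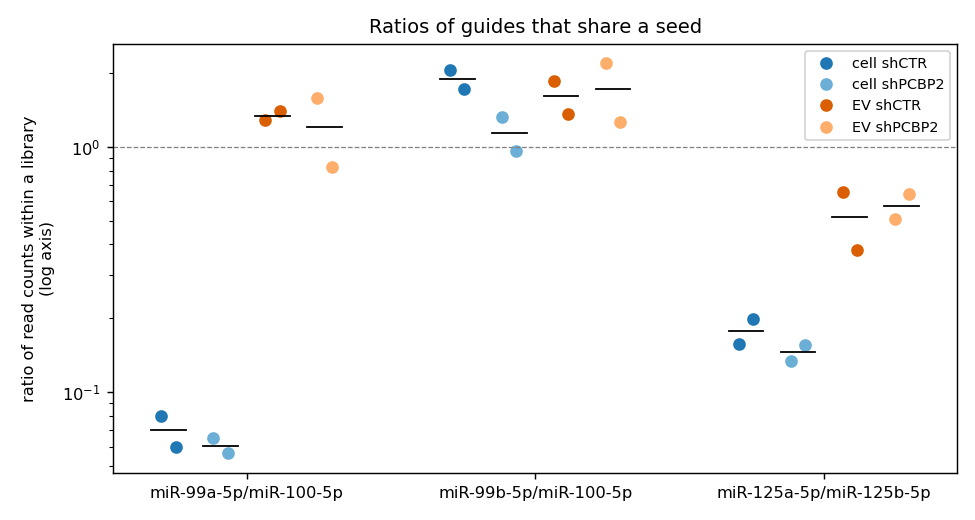
Ratios of the read counts of guides that share a seed, within each library and on a log axis, with 1 point per library, a black line at the group mean and a dashed line at equal counts. The miR-99a-5p/miR-100-5p ratio is 0.0563 to 0.0801 in cells and 0.828 to 1.58 in EVs, and only the miR-99b-5p/miR-100-5p ratio overlaps between the compartments.

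Markers of blood and serum moved with the compartment as well. A list of 11 such miRNAs, among them the erythroid miR-451a and miR-486a-5p and the myeloid miR-223-3p, summed to 189 to 258 RPM in cell libraries and to 118214 to 138180 in EV libraries. The list holds both miR-486a-5p and miR-486b-5p, whose counts were nearly equal in each library. In EV shCTR replicate 1 they were 30647 and 30824. Whether the same reads were counted for both was not tested, so these sums may be too high. Of the 11, 5 had no read in any cell library, namely miR-451a, miR-144-3p, miR-144-5p, miR-142a-3p and miR-142a-5p, and 9 were read in every EV library. A mesenchymal list of 6 miRNAs, with miR-143-3p and miR-199a-3p, summed to 13.4 to 30.5 RPM in cells and 3944 to 7094 in EVs. Within that list miR-145a-3p had 15 counts in cell shCTR replicate 2 and no read in any EV library. Among EV libraries miR-199a-5p was read only in shCTR replicate 1, with 94 counts. The hepatocyte list of 5 summed to 24055 to 28571 RPM in cells and 9836 to 12890 in EVs, but its members were not alike. In shCTR the log2 EV/cell ratios of miR-122-5p and miR-148a-3p lay 5.95 and 7.63 above the median of all miRNAs, and those of miR-192-5p and miR-194-5p 0.69 and 1.91 below it. The part of RNA from other cells or from serum in the EV levels of miR-99a-5p and miR-125a-5p was not tested.

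The let-7 guides, which repress growth and pluripotency genes, lay apart from their neighbours on chromosomes 16 and 17 and close to miR-100-5p on chromosome 9. In shCTR the log2 EV/cell ratio of let-7c-5p was -5.95 (SE 0.29), beside -0.48 for miR-99a-5p. let-7c-5p outnumbered miR-99a-5p by 144-fold and 229-fold in cell shCTR and 268-fold and 284-fold in cell shPCBP2, but by only 4.60-fold and 3.53-fold in EV shCTR and 4.56-fold and 4.97-fold in EV shPCBP2. Mature let-7c-5p also arises from another locus, so these are ratios of mature miRNAs and not of products of 1 transcript.

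The cluster on chromosome 17 has no such second copy among its let-7e, miR-99b and miR-125a products in RefSeq. The log2 EV/cell ratio of let-7e-5p in shCTR was -6.35 (SE 0.29), against -4.96 for miR-99b-5p and -3.14 for miR-125a-5p. let-7e-5p outnumbered miR-125a-5p by 10.4-fold to 19.2-fold in cell libraries, and the ratio was 0.932 to 1.73 in EV libraries. miR-99b-5p outnumbered miR-125a-5p by 2.87-fold to 5.04-fold in cells, and the ratio was 0.958 to 1.26 in EVs. let-7e-5p over miR-99b-5p was 2.47 to 5.96 in cells and 0.902 to 1.37 in EVs. The 3 mature miRNAs of this cluster were thus less unequal in EVs than in cells. let-7a-5p differs by a single base from let-7c-5p and from let-7e-5p. The division of their reads by the aligner is uncertain to that extent. On chromosome 9, miR-100-5p per let-7a-5p read was 0.0617 to 0.0848 in cells and 0.0686 to 0.102 in EVs, which overlap, and let-7a-5p also arises from other loci. All 3 let-7 guides were lower in EVs per spike-in at an adjusted p under 0.05 in either line, beside 59.4% of all miRNAs in shCTR and 60% in shPCBP2. The log2 EV/cell ratio of let-7a-5p in shCTR, -4.77 (SE 0.30), was 0.17 above the median, while let-7c-5p and let-7e-5p lay 1.02 and 1.42 below it.

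The passenger strands, the opposite arms of the same hairpins, are mostly degraded after the guide is loaded into Argonaute. Of the 6, miR-99a-3p had no read in any library, and miR-100-3p and miR-125b-2-3p had at most 92 and 64 counts in cells and none in EVs, so 3 could be tested. A count of 0 allows up to 3 counts, which in an EV library is 0.000436% to 0.000596% of the mouse miRNA reads, counting error only. In shCTR all 3 tested passengers were lower in EVs by edgeR's quasi-likelihood test, as were 59.4% of all miRNAs, with log2 ratios of -7.93 for miR-99b-3p (SE 2.35, adjusted p = 0.0237), -7.27 for miR-125a-3p (SE 2.47, adjusted p = 0.0387) and -6.38 for miR-125b-1-3p (SE 0.58). These values lay 3.00, 2.34 and 1.44 below the median of all miRNAs. In shPCBP2 only miR-125b-1-3p passed, at -6.76 (SE 0.59), while miR-99b-3p was at -5.32 and miR-125a-3p at -6.17 (adjusted p = 0.0611 and 0.0559). The difference between shRNAs in these ratios did not pass (adjusted p = 0.992 for each).

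For these 3 arm pairs each EV library held more guide per passenger read than any cell library, by a small margin for miR-99b. Arm pairs of other hairpins were not examined, so this is not shown to be particular to these 3. miR-125a-5p over miR-125a-3p was 1.61 and 2.44 in cell shCTR and 1.24 and 1.30 in cell shPCBP2, so both arms were close in abundance in cells. In EVs it was 22.9 in EV shCTR replicate 1, at least 716 in EV shCTR replicate 2, where the passenger had no read, and 10.2 and 46.8 in EV shPCBP2. miR-99b-5p over miR-99b-3p was 3.48 to 6.85 in cells and 7.91 to 26.3 in the EV libraries with passenger reads, with a bound of at least 903 in EV shCTR replicate 2. miR-125b-5p, pooled from both of its hairpins, over miR-125b-1-3p was 3.71 to 4.78 in cells and 9.20 to 25.2 in EVs. The passenger counts in EVs were small, with 153, 0, 518 and 257 for miR-99b-3p, 183, 0, 345 and 61 for miR-125a-3p and 254, 613, 301 and 273 for miR-125b-1-3p.

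Unlike the guide, the passengers of the Mir125b hairpins differ in sequence and can be counted apart. In cells miR-125b-1-3p, from chromosome 9, outnumbered miR-125b-2-3p, from the cluster of Mir99a on chromosome 16, by 312-fold to 807-fold. Both passengers of the chromosome 16 cluster were thus scarce in the cell libraries, and miR-99a-5p was the scarcest of the 5 guides there. Passenger levels reflect strand decay as well as transcription, and these could not be told apart, so the ratio does not give the source of the miR-125b-5p reads.

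**Figure D4:**
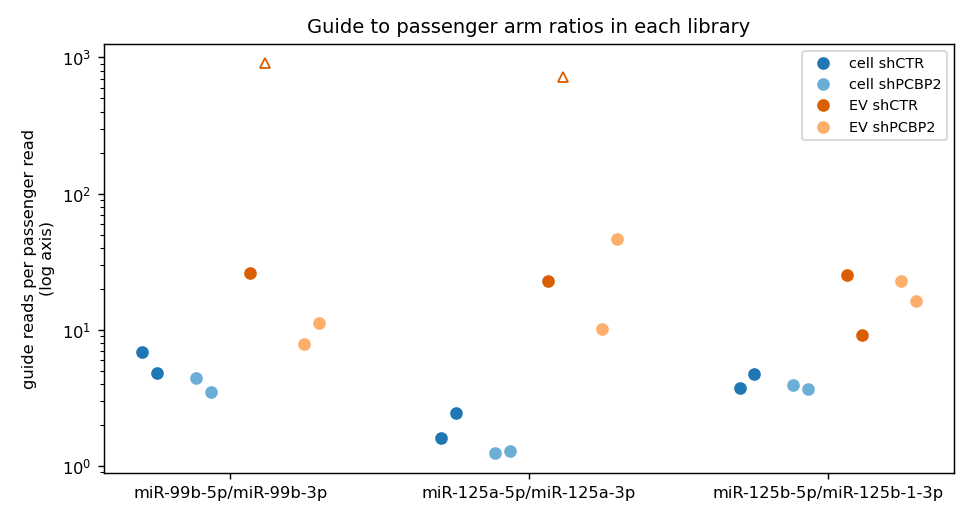
Guide reads per passenger read in each library, on a log axis, with 1 point per library. For miR-125b-5p the guide reads are pooled from Mir125b-1 and Mir125b-2 and the passenger is that of Mir125b-1. Open triangles are lower bounds for EV shCTR replicate 2, whose passenger count was 0 and was set to 3; every EV point lies above every cell point of its pair.

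With PCBP2 silenced, all 5 guides had lower values in cells, but so did most miRNAs. Relative to the spike-in all 5 were lower in both cell shPCBP2 libraries than in both cell shCTR libraries, beside 66.7% of all tested miRNAs. The median log2 change of all miRNAs was -0.49. It was -0.29 without cell shPCBP2 replicate 1, the cell library with the lowest share of mouse reads, and -0.77 without cell shPCBP2 replicate 2. By the share of mouse reads, 4 of the 5 were separated in this direction, beside 52.2% of all, and miR-100-5p overlapped.

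miR-99b-5p had the largest difference among the guides. It had 4279 and 3475 reads per 1000000 spike-in reads in cell shCTR and 1570 and 1868 in cell shPCBP2, a log2 change of -1.17 (SE 0.25, 95% interval -1.77 to -0.57), which is 2.25-fold lower. The adjusted p was 0.110 in edgeR's quasi-likelihood test. It was 8.06e-05 with DESeq2, 0.0323 when at least 10 counts were required in every library and 0.0103 in a fit of the 4 cell libraries alone. Under the other 13 of 16 alternatives it did not pass, with values up to 0.651 without cell shCTR replicate 1, 0.576 with no filter and 0.321 with the replicate block.

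miR-125a-5p, from the same cluster, had 848 and 1210 reads per 1000000 spike-in reads in cell shCTR and 448 and 579 in cell shPCBP2. Its log2 change was -1.003 (SE 0.41, 95% interval -1.99 to -0.015), with an adjusted p of 0.342 in edgeR's quasi-likelihood test and of 0.0121 in the fit of the 4 cell libraries, the only one of 16 alternatives in which it passed. let-7e-5p, which lies between them, had a log2 change of -0.32 (SE 0.23), and the passengers miR-99b-3p and miR-125a-3p had -0.59 (SE 1.74) and -0.34 (SE 1.88), none of which passed the test.

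miR-125b-5p had 5400 and 6064 reads per 1000000 spike-in reads in cell shCTR and 3331 and 3713 in cell shPCBP2. The log2 change was -0.70 (SE 0.17, 95% interval -1.12 to -0.28), with an adjusted p of 0.128 in edgeR's quasi-likelihood test and of 0.000856 with DESeq2, the only one of 16 alternatives in which it passed. The log2 change was -0.63 (SE 0.50) for miR-99a-5p and -0.39 (SE 0.33) for miR-100-5p, both with an adjusted p of 0.709. miR-100-5p had 2088 and 2022 reads per 1000000 spike-in reads in cell shCTR and 1186 and 1941 in cell shPCBP2, so its second silenced library lay close to the controls.

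In cells 0 of the 5 guides and 0% of all 180 miRNAs thus passed edgeR's quasi-likelihood test. At an unadjusted p under 0.05 there were 3 guides, miR-99b-5p, miR-125b-5p and miR-125a-5p, among 25 miRNAs, and DESeq2 called 2 guides among 18 miRNAs. Less miRNA per cell and fewer cells or less RNA in a library cannot be told apart by reads per spike-in. Relative to the median of all miRNAs, miR-99b-5p was lower by 0.68, miR-125a-5p by 0.51, miR-125b-5p by 0.21 and miR-99a-5p by 0.14, and miR-100-5p was 0.096 higher. With TMM factors, where that median was -0.019, the log2 changes were -0.67, -0.51, -0.19 and -0.16, and 0.066 for miR-100-5p.

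**Figure D5:**
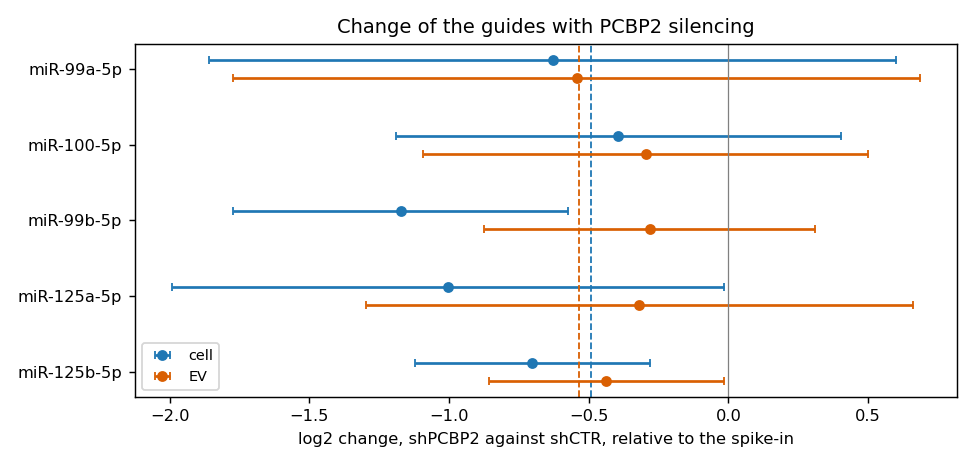
log2 change of each guide in shPCBP2 against shCTR, relative to the spike-in, in cells and in EVs, with 95% intervals. Dashed lines mark the medians of all tested miRNAs, -0.49 in cells and -0.54 in EVs. Every interval in EVs overlaps the interval in cells, but such overlap does not test their difference. No guide passed edgeR's quasi-likelihood test at an adjusted p under 0.05 in either compartment.

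In EVs the guides lay at or somewhat above the median of all miRNAs, which was -0.54 per spike-in. Their log2 changes were -0.54 (SE 0.50) for miR-99a-5p, -0.44 (SE 0.17) for miR-125b-5p, -0.32 (SE 0.40) for miR-125a-5p, -0.30 (SE 0.33) for miR-100-5p and -0.28 (SE 0.24) for miR-99b-5p. Per spike-in, 3 of the 5 were lower in both silenced than in both control EV libraries, beside 42.2% of all tested miRNAs. No guide passed edgeR's quasi-likelihood test, beside 7.22% of all miRNAs, and the lowest adjusted p was 0.263 for miR-125b-5p. At an unadjusted p under 0.05 there was 1 guide, miR-125b-5p, among 31 of the 180 miRNAs. DESeq2 called 0 of the 5 guides and 27 of the 180 miRNAs. By the share of mouse reads the shRNA groups overlapped in EVs for all 5 guides, while 17.8% of all miRNAs were separated upwards and 18.3% downwards. With the total mouse miRNA count as the scale the log2 changes of all but miR-99a-5p were above 0, from 0.038 to 0.21.

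How far silencing changed the EV/cell ratio, the quantity the study was designed for, was not resolved for any guide. miR-99b-5p had the highest value, with a log2 change of the ratio of 0.89 (SE 0.34, 95% interval 0.051 to 1.73), an unadjusted p of 0.0408 in edgeR's quasi-likelihood test over all miRNAs and an adjusted p of 0.434. Its log2 change was -1.17 in cells and -0.28 in EVs. miR-125a-5p followed at 0.68 (SE 0.57, 95% interval -0.70 to 2.07), then miR-125b-5p at 0.27 (SE 0.24), miR-100-5p at 0.099 (SE 0.46) and miR-99a-5p at 0.087 (SE 0.71), each with an adjusted p of 0.992. In all 0 of 5 guides passed, beside 2.22% of all miRNAs, and none did with DESeq2 or under any other alternative. The 95% interval for miR-99a-5p ran from -1.65 to 1.82, so these libraries were compatible with changes of its ratio in either direction within that range.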

How the data were processed

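Small RNA of 3A cells and of their EVs was measured in 8 libraries, 2 in each of 4 groups taken from the sample titles. After library preparation with a small RNA kit, the authors trimmed reads with FastqToolkit and aligned forward reads to miRBase hairpins and the spike-in with mirPRo and Novoalign. The deposited counts are raw reads per mature miRNA, in 1 table of 1980 rows, 1978 of them mouse, and counts above 999999 are printed to 6 significant digits. Titles and descriptions number the shPCBP2 replicates differently, and the titles were used. Reads carry no molecular identifiers used in counting, and p-values measure only the spread between these libraries.

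A miRNA was tested if no fewer than 2 cell libraries and 2 EV libraries held at least 1 read of it. The test was edgeR 4.0.16 (glmQLFit and glmQLFTest) in R 4.3.3, scaled to the reads of the spike-in, with terms for compartment, shRNA and their interaction, and with Benjamini-Hochberg adjustment over all tested miRNAs. The fit had a common dispersion of 0.693, 4 residual degrees of freedom and a prior of 2.10. Standard errors were derived from the F statistic. DESeq2 1.42.0 served as an alternative. The median-of-ratios factors and the TMM factors used mouse miRNAs. Ratios within a library were compared by exact permutation in Python 3.11.15 with scipy 1.17.1, numpy 2.4.6 and pandas 2.3.3. Sequences came from RefSeq (GRCm38.p6) and hairpin positions from the GENCODE annotation of GRCm38. Named miRNAs were the 5 guides, their passengers, the let-7 guides of their clusters, rows of marker lists, and for each guide the 2 miRNAs most like it. The guides and lists were chosen with earlier results of these data known.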

Additional observations from a re-analysis of the deposited data

How the results depend on the processing

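With 2 libraries a group and a common dispersion of 0.693, small changes of the guides were not detectable, and EV libraries rest on fewer mouse reads than cell libraries. The cause of the shifts below was not tested, except that fewer or more miRNAs were tested under the count filters. None of the 5 guides was called for the change of the EV/cell ratio, or for shPCBP2 against shCTR in EVs, under any alternative.

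Numbers of miRNAs called moved as follows. For the change of the EV/cell ratio (4), TMM factors gave 13, median-of-ratios size factors 2, at least 10 counts in every library 0, DESeq2 14, and leaving out 1 library 0 to 11. In EVs (13), no filter and at least 10 counts each gave 7, DESeq2 27, the 4 EV libraries alone 1, and leaving out 1 library 1 to 21. In cells (0), TMM factors gave 5, median-of-ratios size factors 1, the total mouse miRNA count 3, at least 10 counts 8, DESeq2 18 and the 4 cell libraries alone 39. For EVs against cells in shCTR (119), median-of-ratios size factors gave 76, the total count 75 and no filter 294, and in shPCBP2 (122) no filter gave 294. Of the 5 guides in cells (0), at least 10 counts called 1, DESeq2 2 and the 4 cell libraries 2. Of the 5 guides in EVs against cells (4), the 3 scalings without the spike-in each called 2 in shCTR, and in shPCBP2 TMM factors called 2, the median-of-ratios method 3 and the total count 4, all of them higher in EVs.

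With the replicate block the EV/cell ratio had 1 call and the EV comparison 2, while no guide changed its side of the threshold. By the title numbers, the correlation of replicate differences between groups was -0.51 to 0.04. Titles and descriptions number the shPCBP2 replicates differently, so these values cannot show whether libraries of different groups share a culture.

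The sign of a guide's log2 change turned in these cases. For the change of the EV/cell ratio, TMM factors gave -0.12 for miR-99a-5p and -0.064 for miR-100-5p. Without 1 library that of miR-99a-5p was -0.17 (cell shCTR replicate 1), -0.15 (cell shPCBP2 replicate 1) and -0.087 (EV shPCBP2 replicate 1), with up to 0.36 without the others, and that of miR-100-5p -0.21 (cell shPCBP2 replicate 1) and -0.23 (EV shPCBP2 replicate 2), with up to 0.50. In EVs, median-of-ratios size factors gave 0.12, 0.11 and 0.11 and the total count 0.21, 0.18 and 0.18 for miR-99b-5p, miR-100-5p and miR-125a-5p. The total count gave 0.038 for miR-125b-5p, TMM factors 0.0016 for miR-100-5p, and leaving out EV shCTR replicate 1 gave 0.18 for miR-125a-5p, whose lowest value without 1 library was -0.69. In cells, TMM factors gave 0.066 for miR-100-5p.

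For EVs against cells, the values with TMM factors, the median-of-ratios method and the total count in shCTR were 4.29, 4.30 and 4.51 for miR-99a-5p, 1.62, 1.61 and 1.83 for miR-125a-5p, 0.034, 0.046 and 0.26 for miR-100-5p and 0.090, 0.10 and 0.31 for miR-125b-5p, and the total count gave 0.010 for miR-99b-5p. In shPCBP2 they were 4.16, 4.37 and 4.80 for miR-99a-5p, 2.10, 2.30 and 2.72 for miR-125a-5p, 0.47, 0.67 and 1.09 for miR-99b-5p and 0.11, 0.32 and 0.74 for miR-125b-5p, and the last pair of scalings gave 0.17 and 0.57 for miR-100-5p.

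The miR-99a-5p/miR-100-5p difference was 4.26 with an exact permutation p of 0.0556 within each shRNA, and 4.14 to 4.45 without 1 library. The miR-125a-5p/miR-125b-5p difference was 1.74 with a p of 0.0556 in the same exact permutation test, and 1.64 to 1.90 without 1 library. Without 1 library the smallest exact permutation p is 0.0571. The miR-99b-5p/miR-100-5p difference was -0.041 without cell shPCBP2 replicate 2.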

Other observations

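Among 108 miRNAs with at least 10 counts in every library, the ones whose levels ran most like each guide over the 8 libraries were found by the root mean square difference of log2 RPM, each centred on its own mean. The libraries share depth and compartment, so likeness mainly follows the EV/cell difference and is given as a description. miR-99a-5p was most like miR-423-5p (0.270), which had a mean of 369 RPM in cells and 7472 in EVs, and miR-126a-3p (0.395), an endothelial miRNA of the blood list, with 169 and 4057. Its own seed partner miR-100-5p was far less like it (2.15), and the median over all 108 was 2.39.

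miR-125a-5p was most like miR-139-5p (0.189) and miR-92a-3p (0.264), a product of the miR-17-92 cluster. miR-125b-5p was most like miR-30d-5p (0.204) and miR-652-3p (0.245) among miRNAs outside the families. miR-99b-5p was most like miR-181a-5p (0.245) and miR-652-3p (0.310), and about as like miR-125b-5p (0.237). miR-100-5p was most like miR-151-5p (0.136) and miR-23a-3p (0.168).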
